A study of Homo sapiens with 2 samples.

Results

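Band 11p15.5 is the end of the short arm of chromosome 11, positions 1 to 2800000 of hg19. It was examined for binding sites of ZMYND8 in MDA-MB-231 mammospheres. Every peak summit of the deposited lists inside these positions was taken as a member, which gave 310 of 46309 summits. Of these, 308 came from the 45924 summits of parental cells and 2 from the 385 summits of ZMYND8 knockout cells. The members are defined by the positions of called summits, and the band was proposed with their density and scores known, so its overall density and scores are given as a description, with no test. At the band's edge the last summit inside lay at 2796845 (score 1.45) and the first outside at 2800154 (score 2.93).

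MDA-MB-231 is an established triple-negative breast cancer line, grown here as floating spheres in MammoCult medium. ChIP-seq was run with 1 library from cells labelled wildtype and 1 from cells labelled ZMYND8 knockout, with the same ZMYND8 antibody. Both genotypes share the line, the medium and the antibody, and the labels do not say whether the knockout is a single clone. With 1 library per genotype no difference between them has a replicate check, and all intervals are 95% intervals for counting error only. They treat summits as independent, which neighbouring summits are not. Read depth is not given in the sources used here, and its part in the number of summits was not tested.

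ZMYND8 is a chromatin reader that binds modified histone tails and works with repressor and activator complexes. Band 11p15.5 joins gene-rich chromatin near the chromosome end to a cluster of gel-forming mucin genes and to imprinted domains, in which the maternal and the paternal copy of a gene are used unequally. The H19 long noncoding RNA and the growth factor gene IGF2 share an imprinting control region bound by CTCF. The potassium channel gene KCNQ1 holds the start of the antisense RNA KCNQ1OT1, which is transcribed from the paternal copy and silences neighbours in cis. Disturbed imprinting of these domains is known from Beckwith-Wiedemann syndrome.

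The order of genes was taken from RefSeq on GRCh38.p14, used for names and neighbours only, because no hg19 annotation was used here. Walking in from the chromosome end, 50 protein-coding genes preceded MUC6. They included IFITM5, which is expressed in bone, its interferon-induced relatives IFITM2, IFITM1 and IFITM3, the GTPase gene HRAS, the interferon regulator IRF7, the transaldolase gene TALDO1, and the tetraspanin genes CD151 and TSPAN4. MUC6, MUC2, MUC5AC and MUC5B, which encode secreted gel-forming mucins, lay within a run of 5 protein-coding genes. A further 20 protein-coding genes lay between MUC5B and IGF2, among them TOLLIP, BRSK2, the lysosomal protease gene CTSD and the troponin genes TNNI2 and TNNT3. IGF2 was followed by INS (insulin), TH (tyrosine hydroxylase) and ASCL2, then by TSPAN32, CD81, TSSC4 and TRPM5, and 8 protein-coding genes separated IGF2 from KCNQ1. No summit was assigned to any of these genes, so the named parts below are intervals of hg19 and not gene bodies or promoters.

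Parental summits were densest in the segment before 1.0 Mb and in the mucin part, and sparsest beyond 2.2 Mb. The band held 110.0 summits per Mb (308 summits, exact Poisson interval 98.1 to 123.0). Chromosome 11 outside the band held 18.6 per Mb (17.8 to 19.3), and the list outside the band held 15.0 per Mb on chromosomes 1 to 22 and X. The band's density was 7.32 times that of the rest of the list (exact conditional interval 6.52 to 8.18). It ranked 5 among 674 cytogenetic bands of at least 2 Mb, whose median was 10 per Mb. The bands 11q13.1 (115.2 per Mb) and 17q25.3 (117.6 per Mb) were close to it, with ratios of 11p15.5 to each of 0.955 (0.810 to 1.125) and 0.936 (0.816 to 1.07). Band 9q34.3 held 90.7 per Mb, a ratio of 1.21 (1.04 to 1.42).

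**Figure D1:**
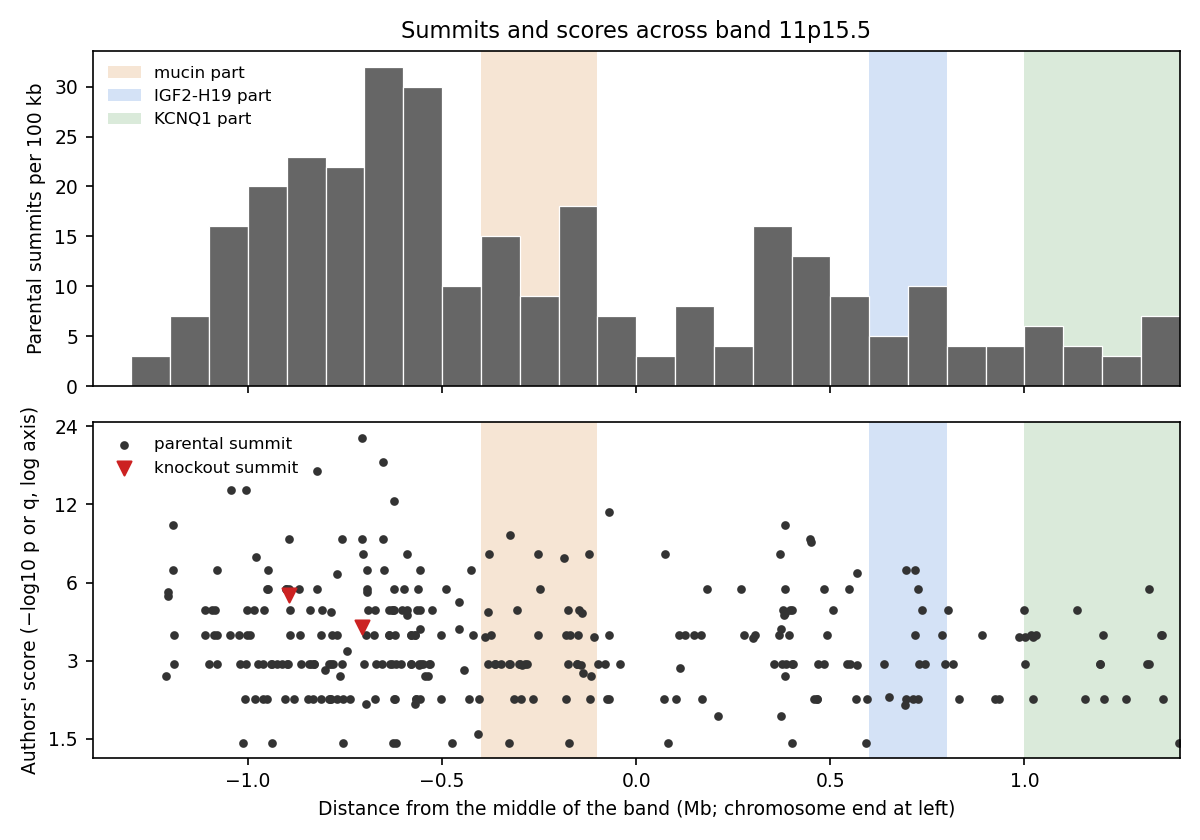
Upper panel: parental summits per 100 kb against the distance from the middle of the band in Mb, with the chromosome end at the left. Lower panel: the authors' score of each parental (dots) and knockout (triangles) summit on a log axis; shading marks the mucin, IGF2-H19 and KCNQ1 parts. Counts peak at 32 per 100 kb before the mucin part, and both knockout summits lie there.

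The segment from the chromosome end to 1.0 Mb held most of the members. It carried 163 of the 308 parental summits, 163.0 per Mb (138.9 to 190.0). Lengths count all bases of an interval, including any left unsequenced in hg19. The mucin part (1.0 to 1.3 Mb) held 42, or 140.0 per Mb (100.9 to 189.2). The stretch from 1.3 to 2.0 Mb held 60, or 85.7 per Mb (65.4 to 110.3). The IGF2-H19 part (2.0 to 2.2 Mb) held 15, or 75 per Mb (42.0 to 123.7). The stretch from 2.2 to 2.4 Mb held 8, or 40.0 per Mb (17.3 to 78.8). The KCNQ1 part (2.4 to 2.8 Mb) held 20, or 50 per Mb (30.5 to 77.2). Neighbours in this order did not all differ beyond counting error: the first segment against the mucin part gave a ratio of 1.16 (0.825 to 1.68), whereas the mucin part against the stretch behind it gave 1.63 (1.07 to 2.46). The stretch from 1.3 to 2.0 Mb against the IGF2-H19 part gave 1.14 (0.641 to 2.17), and the stretch from 2.2 to 2.4 Mb against the KCNQ1 part gave 0.800 (0.305 to 1.90).

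Set against the rest of the band, which is the 1.9 Mb outside the 3 named parts (231 summits, 121.6 per Mb), only the KCNQ1 part differed beyond counting error. The mucin part stood at 1.15 times the rest (0.808 to 1.61), an interval that includes equal density. The IGF2-H19 part stood at 0.617 times the rest (0.340 to 1.04), which also includes equal density. The KCNQ1 part stood at 0.411 times the rest (0.247 to 0.650), below it beyond counting error. The rest owes much of its density to the segment before 1.0 Mb. Without that segment it held 75.6 per Mb, and the ratios became 1.85 (1.23 to 2.76) for the mucin part, 0.993 (0.527 to 1.75) for the IGF2-H19 part and 0.662 (0.381 to 1.10) for the KCNQ1 part. Between the parts themselves, the mucin part was 2.8 times as dense as the KCNQ1 part (1.61 to 5.03) and 1.87 times as dense as the IGF2-H19 part (1.01 to 3.62). The IGF2-H19 and KCNQ1 parts could not be told apart (ratio 1.5, 0.715 to 3.08).

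**Figure D2:**
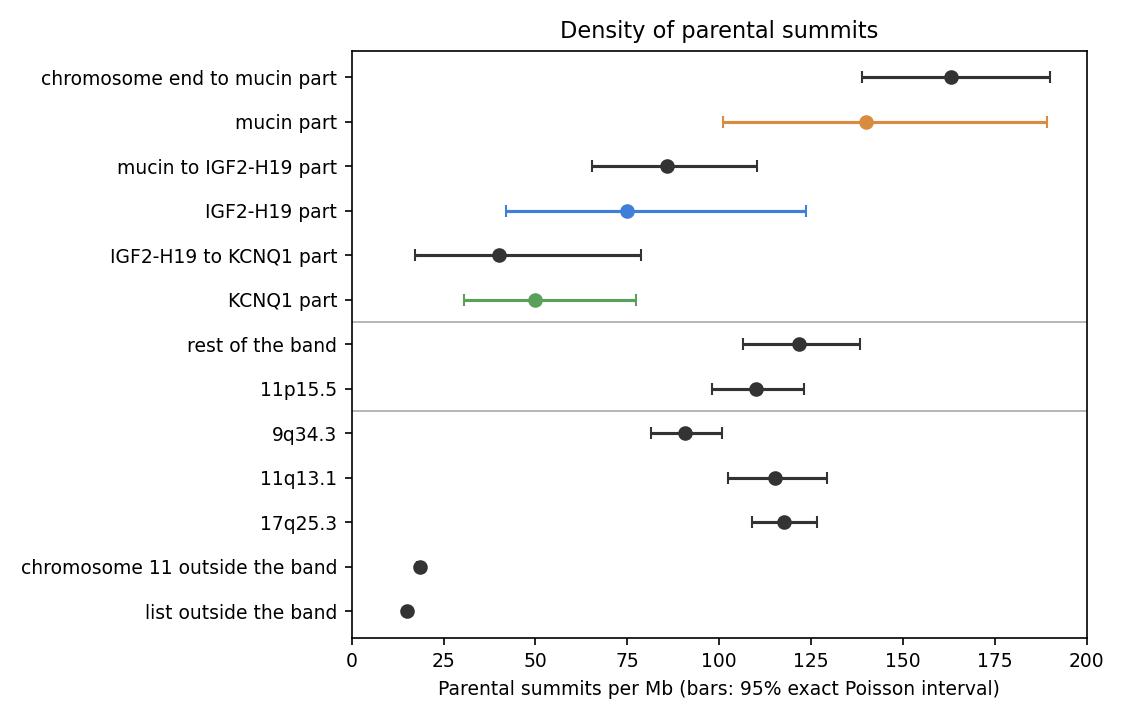
Parental summits per Mb (dots) with exact Poisson 95% intervals (bars) for the segments of 11p15.5 in order from the chromosome end, for the rest of the band and the whole band, and for other bands, chromosome 11 and the list. The first segment (163.0) and the mucin part (140.0) stand highest, the KCNQ1 part at 50, and the list outside the band at 15.0.

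In bins of 100 kb the band was covered almost without a break. Of its 28 bins, 27 held a parental summit, while 61.3% of the 30353 bins of chromosomes 1 to 22 and X were empty. The empty bin was the first, and no summit lay between positions 1 and 189700. The fullest bin, 0.7 to 0.8 Mb, held 32 summits, a count reached by 57 bins of the list. The next, 0.8 to 0.9 Mb, held 30. The bins of the mucin part held 15, 9 and 18 summits, those of the IGF2-H19 part 5 and 10, and those of the KCNQ1 part 6, 4, 3 and 7. At least 10 summits were found in 12 of the 28 bins (42.9%), against 3.36% of bins in the list.

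Scores in the band are listed here as a description, since the band was proposed with them known. The score is the authors' −log10 p or q value for a summit, used here only within the parental list. Its median in the band was 3.10 and its range 1.45 to 21.7, against a list median of 3.79. A score of at least 5.68, the 75th percentile of the list, was reached by 56 of the 308 summits and is called high below. That is 18.2% (exact binomial interval 14 to 23), while 26.1% of the whole list reached it, ties included. On the rest of chromosome 11 the share was 26.9% (25.1 to 28.7). Among bands of similar density it was 29.2% (24 to 34.8) in 11q13.1 and 26.3% (23 to 29.7) in 17q25.3, whereas 9q34.3 had 19.1% (15.1 to 23.6). A score of at least 10 was reached by 9 members, 2.92% (1.34 to 5.47), and by 6.27% of the whole list. Of 123 bands with at least 100 summits and 2 Mb, 11p15.5 ranked 117 by its share of high scores. This rank is a listed value and not a comparison of signal, for the reason given with the tied scores below.

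High scores were held by 6 of the 42 mucin part summits, 14.3% (5.43 to 28.5). They were held by 3 of the 15 IGF2-H19 part summits, 20% (4.33 to 48.1). In the KCNQ1 part it was 1 of 20 summits, 5.0% (0.127 to 24.9). In the rest of the band it was 46 of 231, 19.9% (15.0 to 25.7). These intervals overlap one another. Those of the mucin and IGF2-H19 parts include the 26.1% of the list, while those of the KCNQ1 part and of the rest lie below it. The rest pools unlike segments. Its segment before 1.0 Mb had 20.9% (14.9 to 27.9) and the rest without that segment 17.6% (9.47 to 28.8). Taken alone, each of these intervals includes 26.1%. The median score was 2.93 in each of the named parts and 3.79 in the rest. Without the segment before 1.0 Mb the median of the rest was 3.30. Many summits share the values 2.93 and 3.79, so these medians are coarse. All 9 summits that reached a score of 10 lay in the rest, 7 of them before 1.0 Mb and 2 between 1.3 and 2.0 Mb. The zeros in the named parts allow shares of up to 8.41% (mucin), 21.8% (IGF2-H19) and 16.8% (KCNQ1), which include both the 3.90% of the rest and the 6.27% of the list. Counting only summits with high scores, the KCNQ1 part held 2.5 per Mb and the rest 24.2 per Mb, a ratio of 0.103 (0.00256 to 0.605) that rests on 1 summit.

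**Figure D3:**
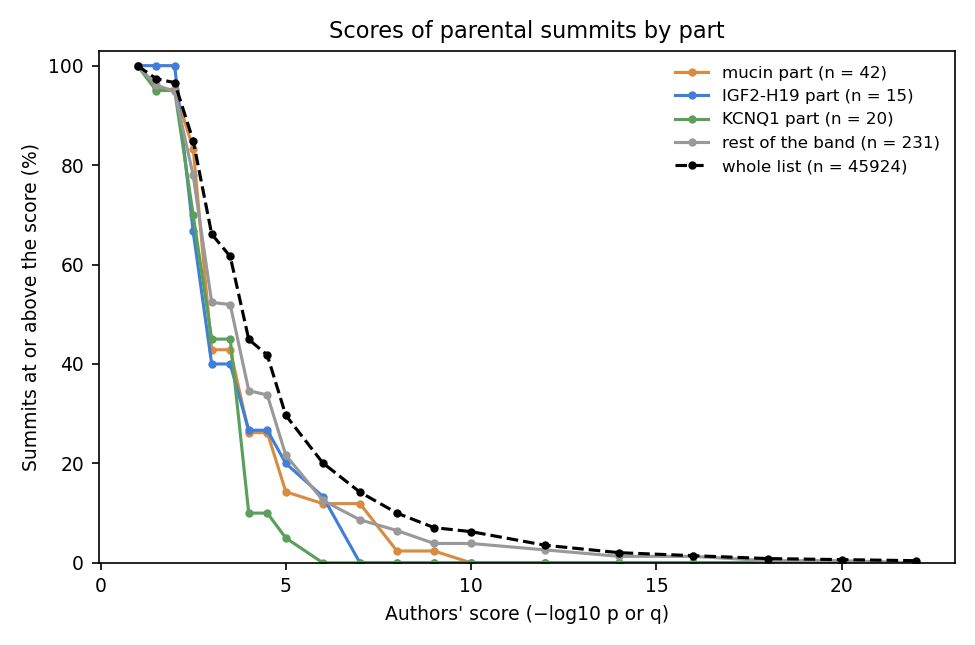
Percent of parental summits at or above each score (authors' −log10 p or q) in the named parts, the rest of the band and the whole parental list. All band curves run below the list between scores of 3 and 6, and no summit of the KCNQ1 part lies above 5.68.

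The scores of the band were heavily tied. Its 308 summits shared 46 distinct values, and 69 of them had the same score of 2.93, 49 had 2.14 and 47 had 3.79. The 10 commonest score values of the parental list covered 81.5% of the band's summits (76.7 to 85.7). They covered 42.9% (40.9 to 44.9) on the rest of chromosome 11 and 56.5% of the whole list. In this respect 11p15.5 stood with 9q34.3 (84.7%, 80.4 to 88.3) and apart from 11q13.1 (31.2%, 25.9 to 37.0) and 17q25.3 (29.3%, 25.9 to 32.8), although those bands were about as dense. Whether scores in these bands rest on the same local background was not tested, so the shares of high scores given for them are listed values and not a comparison of signal. All 6 segments of the band had shares between 76.2% and 87.5%. Ranks among members below the high scores therefore carry little information. Many high scores were tied as well: 20 members had 5.68, 9 had 6.70, 7 had 7.77 and 5 had 8.87.

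**Figure D4:**
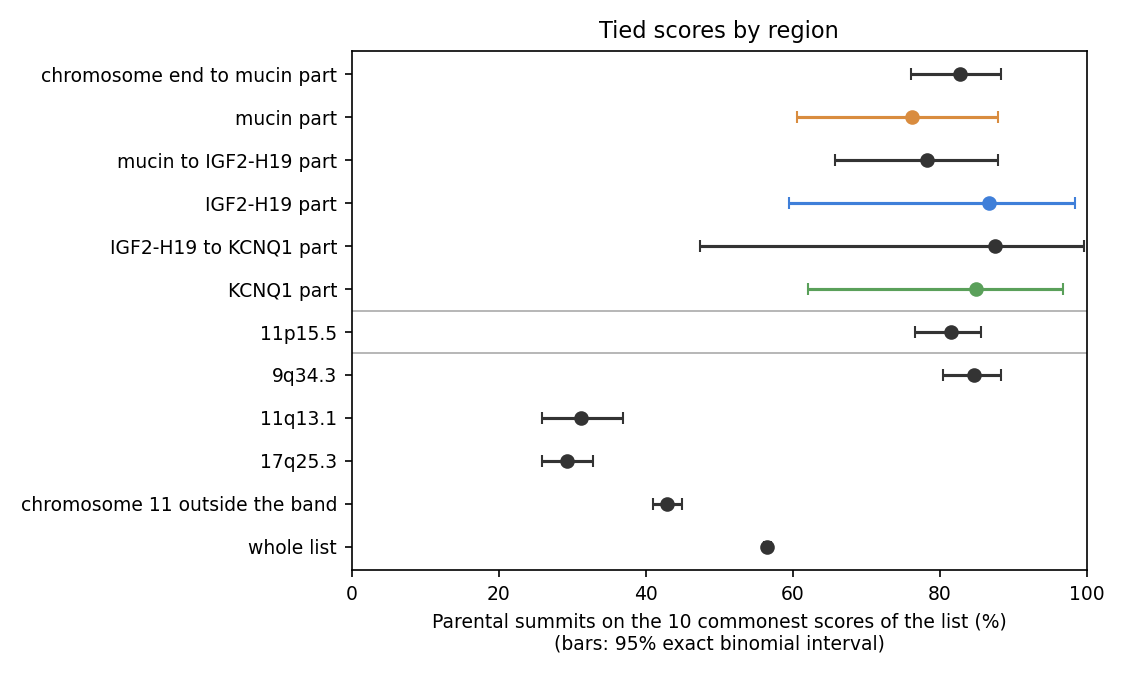
Percent of parental summits whose score is one of the 10 commonest values of the parental list (dots) with exact binomial 95% intervals (bars). The 6 segments of 11p15.5 lie between 76.2% and 87.5%, near 9q34.3 at 84.7%, while 11q13.1 lies at 31.2% and 17q25.3 at 29.3%.

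The highest parental summit of the band lay at 694920, before the mucin part, with a score of 21.7 and rank 202 in the list. It was followed by 748006 (score 17.5, rank 407) and 576651 (score 16.2, rank 554). Summits at 355915 and 394443 shared a score of 13.6, and 776977 had 12.4. The highest summit outside the first segment was at 1331159, just behind the mucin part, with a score of 11.2. The summits at 207878 and 1782673 tied at 10.02. Of the 20 highest members, 13 lay before 1.0 Mb, 4 between 1.3 and 2.0 Mb and 3 in the mucin part, and none lay beyond 2.0 Mb. The mucin part supplied 1073691 (score 9.14), and 1019829 and 1146094 (7.77 each). The others among the 20 were 506566, 642805, 694009, 747178 and 1848115 with a score of 8.87, 1851219 with 8.63, and 696049 and 810105 with 7.77. The last places were decided by position, since 7 members had a score of 7.77 and 3 of them fell outside.

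Scores were also set against the distance to the nearest other parental summit. Of the 308 parental members, 132 had another within 1 kb, and 26.5% of those (19.2 to 34.9) had a high score. Of the 63 whose nearest neighbour lay beyond 5 kb, 9.52% (3.58 to 19.6) did, and the intervals of these shares just overlap. The list showed the same order, with 35.1% and 17.9%. Summits with a neighbour within 1 kb made up 42.9% of the band and 41.2% of the list, and those beyond 5 kb 20.5% and 32.1%. The distance between successive summits had a median of 1915 bp before 1.0 Mb and 4055 bp in the mucin part. It was 6930.5 bp in the IGF2-H19 part and 6721 bp in the KCNQ1 part. In the unnamed stretches it was 4329 bp from 1.3 to 2.0 Mb and 15038 bp, the widest, from 2.2 to 2.4 Mb.

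Dense runs, defined as 10 or more summits with gaps of at most 10 kb, were found 7 times. They held 111 of the 308 summits (36.0%) in 238.7 kb, and 6 of the 7 lay before 1.0 Mb. Runs of this kind held 19.4% of the whole list, 30.9% of the summits of 9q34.3, 45.8% of those of 11q13.1 and 56.1% of those of 17q25.3. The longest ran from 794964 to 875007 with 30 summits that scored 7.77 at most (median 3.36). The most crowded ran from 762687 to 782475, with 16 summits in 19.8 kb and a maximum of 12.4. The run from 694009 to 708117 held 10 summits, had the highest median score of the 7 (5.61) and included the highest summit of the band. The others before 1.0 Mb were 439019 to 462334 (10 summits), 487912 to 517415 (11) and 608069 to 644194 (16). The only run beyond 1.0 Mb went from 1767811 to 1803601, between the mucin and IGF2-H19 parts, with 18 summits and a maximum of 10.02. No named part held a run of this kind.

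Within the mucin part the summits formed a pair of blocks. From 1011023 to 1152515 there were 24, whose scores reached 9.14 (median 2.93). A stretch of 61.0 kb without a summit followed, from 1152516 to 1213490, the longest inside the part. Whether hg19 holds unsequenced bases there was not tested, so the blocks are a description of positions only. From 1213491 to 1291191 there were 18, with a median of 3.32 and a maximum of 7.77. Summits of both blocks covered nearly the same range of scores, from 1.45 upwards.

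The IGF2-H19 part had its 15 summits mostly in the middle. The first was at 2037141 (score 2.93), followed by 2052146 (2.18). After 39.8 kb without a summit, a block from 2091968 to 2143449 held 11. Its highest members were 2093821 and 2118398, each with a score of 6.70 and rank 6747 in the list, and 2125358 with 5.68. Its other members were 2136342 (4.71), 2117946 (3.79), 2129441 and 2143449 (2.93 each), 2094334, 2112799 and 2126190 (2.14 each), and 2091968 (2.03). A further 44.3 kb without a summit led to 2187725 (3.79) and 2196028 (2.93). Of the 15 summits, the 3 with high scores all lay in the middle block.

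The KCNQ1 part was the sparsest of the named parts, and its 20 summits fell into 8 groups when split at gaps over 20 kb. The first group held 6 summits between 2401872 and 2429351, with scores of 2.14 to 3.79. Next came 106.0 kb without any, from 2429352 to 2535334, the third longest empty stretch of the band. Single summits followed at 2535335 (score 4.71) and 2555405 (2.14), and a group of 4 lay between 2593423 and 2603914 (2.14 to 3.79). The summit at 2660942 (2.14) stood alone between empty stretches of 57.0 and 54.0 kb. A group of 3 then held the highest summit of the part, 2721589 (score 5.68, rank 9598), with 2714923 and 2721112 (2.93 each) beside it. The last were 2752603 and 2754100 (3.79 each), 2756468 (2.14) and 2796845 (1.45). Of the 20 scores, 2 were above the list median, 10% (1.23 to 31.7), against 32.5% in the band and 46.5% in the list.

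Longer stretches without a summit also lay outside the named parts. Unsequenced bases of hg19 were not looked for in any empty stretch of the band. After the 189.7 kb at the chromosome end, the next longest was 111.5 kb from 1359079 to 1470600, behind the mucin part. A stretch of 79.7 kb ran from 210105 to 289829. The stretch between the IGF2-H19 and KCNQ1 parts held 8 summits whose highest, 2202434 and 2399416, each scored 4.71.

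The comparison of genotypes asks which of these sites were still called with the ZMYND8 gene knocked out. In 11p15.5 the knockout list held 2 summits, both before 1.0 Mb. Both had a parental summit within 200 bp (exact binomial interval 15.8 to 100%), as did 75.6% of the knockout list. The knockout summit at 506650 had a score of 5.37 (rank 134 of 385), and the nearest parental summit, 506566, lay 84 bp away with a score of 8.87. The knockout summit at 694839 had a score of 4.06 (rank 219), and its parental neighbour 81 bp away was 694920, the highest of the band. Because each list was scored on its own, these values cannot show whether binding changed between genotypes. Each knockout summit thus lay at the highest parental summit within 5 kb, among 5 and 4 parental summits that scored 2.93 to 8.87 and 2.93 to 21.7. Each also fell in one of the 7 dense runs. How often the other knockout summits of the list do either was not computed, so neither is given as a trait of the band.

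**Figure D5:**
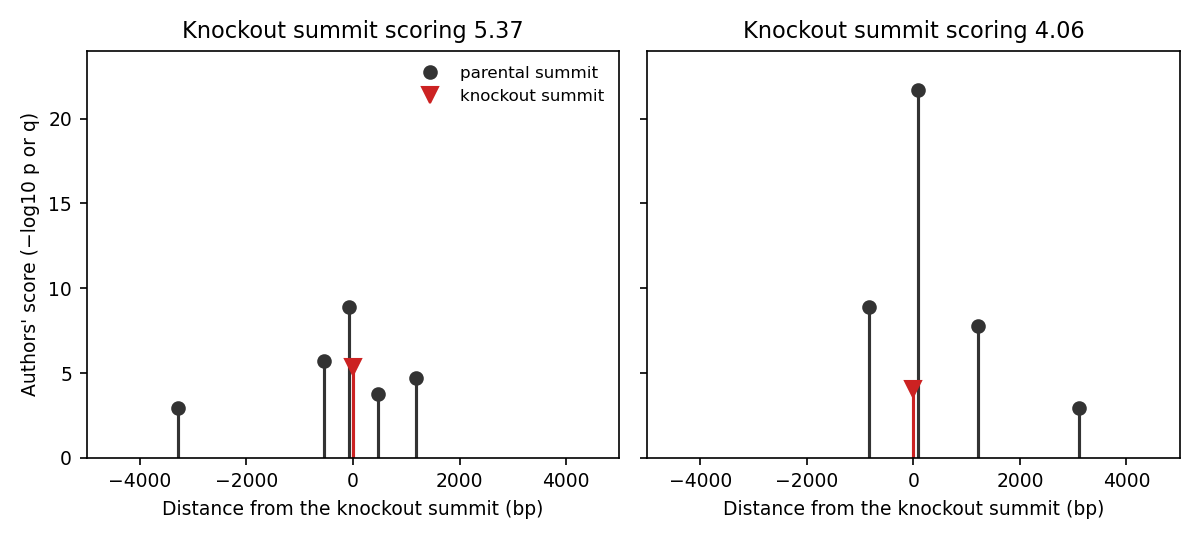
Scores (authors' −log10 p or q) of parental summits (black) within 5 kb of each of the 2 knockout summits (red), against the distance from the knockout summit in bp. The nearest parental summits, 84 and 81 bp away, have the highest parental score in each panel (8.87 and 21.7); heights of the lists are not comparable.

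From the parental side, a knockout partner within 200 bp was found for 2 of 308 summits, and for 0.636% of the parental list. No knockout summit lay within 1 kb of 303 of the 308. The share of the whole parental list at that distance was not computed, so this count is not a trait of the band. The mucin, IGF2-H19 and KCNQ1 parts held 0 knockout summits. The knockout list came to 0.649% of the parental one in the band and to 0.838% overall. Per Mb, the band held 5.66 times as many knockout summits as the rest of that list, but with 2 summits the interval ran from 0.683 to 20.6. At this number a difference between parts in knockout summits was not detectable.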

How the data were processed

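ZMYND8 ChIP-seq of 2 libraries, grouped by the genotype in the labels, was analysed from 1 list of peak summits per library. Tools named in the submitters' processing notes, with no role or setting, are MACS2 2.0.10, Bowtie2 2.2.3, Picard 1.127 and FastQC 0.11.2, and the build is hg19. The deposited score per summit is a −log10 p or q value; which of these it is, and the control, threshold and depth behind it, is not given in the sources used here. Positions are 1-based.

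The members and lists were chosen with earlier results of these data known. Band limits came from circlize 0.4.16 and chromosome lengths from GenomeInfoDb 1.38.1. Counts have exact Poisson intervals, shares exact Clopper-Pearson intervals, and ratios of densities exact conditional binomial intervals, all at 95%. Densities divide by the full length of each interval. They are too low wherever that length includes unsequenced bases, which were not removed. Summits within 200 bp were shared. Named were all knockout summits, the 20 highest parental summits, the highest per segment, the 5 longest empty stretches and runs of 10 or more summits with gaps of at most 10 kb. The split of the named parts at 20 kb gaps, spacing classes, tied scores and ranks of bands were added after the summits were seen. The counting of shared summits was tested on simulated summits with known partners, and the ratio intervals on simulated independent counts. That simulation cannot show how the intervals behave for clustered summits such as these. All 34 listed genes were found in RefSeq (GRCh38.p14), used for order only. Annotation classes and motif searches were left out because no hg19 genome was used here. Python 3.11.15, numpy 2.4.6, pandas 2.3.3, scipy 1.17.1 and matplotlib 3.10.9 were used.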

Additional observations from a re-analysis of the deposited data

How the results depend on the processing

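No paired analysis was possible because each genotype has 1 library. Within the 95% interval of the reported value lay 27 of the alternative values, and 17 lay outside it. This tally is no measure of robustness, because some outcomes were fixed. The knockout partners, 84 and 81 bp away, fall within each alternative distance (100, 500 and 1000 bp). Shares at other score limits are different quantities from the reported share. Of 24 alternative density ratios, 5 fell on the other side of 1 from the reported value. With scores of at least 5 the band held 21.4 summits per Mb, and the ratios to the rest were 0.760 (0.266 to 1.77) for the mucin part, on the other side of 1, and 0.095 for the KCNQ1 part. With scores of at least 10 the band held 3.21 per Mb, and the ratios of the mucin, IGF2-H19 and KCNQ1 parts were 0, with upper limits of 3.21, 4.81 and 2.41 that include equal density, and their shares of summits at that score were 0; the share in the rest was 3.90%. Fewer summits remain at these scores by construction. Counting scores above the list median, the share in the rest was 35.9%, against 46.5% of the list. With the other autosomes and X in place of the rest, the ratios were 9.41 for the mucin part, 5.04 for the IGF2-H19 part and 3.36 for the KCNQ1 part; the last pair thereby changed direction, which follows from the sparser denominator. Leaving the segment before 1.0 Mb out of the rest, an alternative chosen after seeing the data, gave 1.85 for the mucin part and 0.662 for the KCNQ1 part, whose interval then included equal density. With the edges of the IGF2-H19 part moved in by 50 kb its ratio was 1.03 (0.522 to 1.83), again across 1, and moved out 0.649 (0.407 to 0.990). Alternatives for promoters and motifs, fixed at the outset, were not run. Unknown depth limits every comparison of the lists.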
